A study of Mus musculus with 899 samples.

Results

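The samples described here are the plasma libraries of C57Bl/6 mice drawn at month 4 after whole thorax lung irradiation (WTLI) or sham treatment, 45 libraries of a series that holds 497 from C57Bl/6 and 402 from C3H mice. They were chosen by the labels for strain, time point and irradiation, which give 29 irradiated mice (14 females and 15 males) and 16 sham irradiated controls (8 females and 8 males), each library from a different mouse. In the study, young adult mice of the strains C57Bl/6 and C3Hf/Sed/Kam (C3H) received a single local X-ray dose to the thorax, chosen for each strain to kill most but not all of the animals in the following months, or were sham irradiated, and plasma was drawn before treatment (PT), at day 2 or day 5, and then monthly. The question was whether circulating miRNA track late injury of lung and heart. A letter A or B in the labels separates mice bled on day 2 (A) from those bled on day 5 (B), and at month 4 both treatments held both letters (14 and 15 irradiated, 8 and 8 sham). The irradiated mice at month 4 are those still sampled then: C57Bl/6 libraries of irradiated mice numbered 68 at month 1, 36 at month 2, 31 at month 3, 29 at month 4, 21 at month 5 and 8 at month 6, and 4 of the 29 mice, all females of letter A, had no library before month 1. Sham libraries also went from 32 at month 1 to 16 at month 2, so that step is not a loss of irradiated mice alone. The labels hold a cohort code. All 16 sham mice of month 4 are of code G1, while sham C57Bl/6 mice of code G3 have libraries only up to month 1.

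miRNA are short RNAs that guide silencing complexes to messenger RNAs, chiefly through the seed, the stretch of bases 2 to 8 of the mature strand. Cells release them into plasma in vesicles, in protein complexes or when they break open, and because some are made almost only in 1 organ, their plasma level is widely used as a sign of injury there. miR-122-5p is the dominant miRNA of hepatocytes, pancreatic acinar cells make miR-216 and miR-217, miR-208a-3p is encoded within a cardiac myosin gene, and miR-34a-5p is a transcriptional target of p53. miR-451a is abundant in red blood cells and is used to follow hemolysis.

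Total miRNA counts were between 1013173 and 5384784 (median 1464506) in irradiated mice and between 674839 and 2754220 (median 1695331) in sham mice. miR-451a, the red blood cell marker, had a median log2 CPM (CPM is a count scaled to a common library size) of 12.24 in irradiated and 12.14 in sham mice, with ranges of 10.63 to 13.78 and 10.90 to 13.04 that overlapped. No 2 libraries had identical counts. A log2 CPM of 0.23 stands for no reads.

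The mature sequences of the miRNA that the results turn on are given first, from RefSeq (GRCm38.p6), with the seed in capitals. The 23 miRNA that passed the test at month 4 include 21 with an entry used here. miR-122-5p and miR-23b-3p are named only. Said of irradiated mice, rose and fell mean higher and lower than in sham mice at month 4, not a change over time.

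The miRNA of liver and of liver, gut and kidney that rose were as follows.
miR-802-5p: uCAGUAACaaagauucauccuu
miR-192-5p: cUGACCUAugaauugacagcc
The 3 pancreatic acinar miRNA that rose are shown because miR-216a-5p and miR-216b-5p are close relatives, with 18 identical bases of 22 compared from the 5′ end and 6 of 7 seed bases in common, whereas miR-217-5p has a different seed.
miR-216a-5p: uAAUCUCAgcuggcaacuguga
miR-216b-5p: aAAUCUCUgcaggcaaauguga
miR-217-5p: uACUGCAUcaggaacugacugga
The p53-responsive miR-34 family is represented by a 5p strand and a 3p strand, which have different seeds, and is shown with the cardiac miR-208a-3p and with miR-335-5p.
miR-34a-5p: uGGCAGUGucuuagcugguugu
miR-34c-3p: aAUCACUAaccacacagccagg
miR-208a-3p: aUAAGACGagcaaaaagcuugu
miR-335-5p: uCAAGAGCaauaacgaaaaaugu
Among the miRNA that fell, miR-202-5p is shown with its partner miR-202-3p from the other arm of the same hairpin, since both arms differed by sex, and miR-204-5p, miR-199a-5p, miR-125b-5p and miR-99b-5p represent the rest.
miR-202-5p: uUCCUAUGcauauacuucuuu
miR-202-3p: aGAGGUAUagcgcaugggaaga
miR-204-5p: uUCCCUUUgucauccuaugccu
miR-199a-5p: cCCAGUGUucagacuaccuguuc
miR-125b-5p: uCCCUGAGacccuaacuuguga
miR-99b-5p: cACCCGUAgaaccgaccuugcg

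In GRCm38.p6 coordinates, with GENCODE vM21 gene models, the hairpins of the acinar miRNA lie on the plus strand within a short stretch, miR-216b at chr11:28746191-28746276 outside other genes, miR-216a at chr11:28757012-28757083 and miR-217 at chr11:28763728-28763835, both in introns of the lincRNA Gm12082. miR-192 lies at chr19:6264844-6264932 and miR-802 at chr16:93369720-93369816, both outside other annotated genes. miR-208a lies in an intron of the alpha cardiac myosin gene Myh6 at chr14:54949060-54949142, miR-335 in an intron of the imprinted gene Mest at chr6:30741299-30741396, and miR-204 in an intron of Trpm3 at chr19:22750605-22750672, each on the strand of its host. The miR-202 hairpin overlaps an exon of the lincRNA Gm2044 at chr7:139957689-139957760.

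At month 4, miRNA of liver and exocrine pancreas were higher in the plasma of irradiated C57Bl/6 mice, together with miR-34a-5p, miR-34c-3p and miR-335-5p, while miR-202-5p, miR-204-5p, miR-199a-5p and 5 others were lower. miR-122-5p was 7.85-fold higher, miR-216a-5p 4.92-fold and miR-802-5p 3.69-fold. Of 483 miRNA tested with edgeR's quasi-likelihood test and Benjamini-Hochberg adjustment, 23 passed an adjusted p of 0.05 (4.76%), 15 higher and 8 lower, and 91 had an unadjusted p below 0.05. With DESeq2 size factors the split was 19 higher and 6 lower of 25 called, and with the red blood cell list left out of the library sizes it was 14 higher and 13 lower of 27. In plasma, more cells releasing a miRNA and more RNA released per cell cannot be told apart, nor can fewer cells of a type and less RNA per cell.

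miR-122-5p ranged from 9.79 to 16.70 log2 CPM (median 13.54) in the 29 irradiated mice and from 9.72 to 12.41 (median 11.45) in the 16 sham mice. The ranges overlapped at the low end, with 19 irradiated mice above every sham mouse and 4 below the sham median. The highest value belonged to irradiated mouse 1011, a male, and the lowest irradiated value to mouse 1041, a female. Mean log2 CPM was 13.33 ± 1.73 (SD, n = 29) against 11.03 ± 0.89 (SD, n = 16), and the fitted log2 fold change was 2.97 (SE 0.38, edgeR's Benjamini-Hochberg adjusted p = 5.39e-12). As a share of all reads in a library, miR-122-5p went from 0.0662% to 0.459% in sham mice and from 0.0854% to 9.28% in irradiated mice, with medians of 0.240% and 0.983%. The spread among irradiated mice was thus wider than among sham mice. Leaving out any 1 of the 45 mice kept the log2 fold change between 2.72 and 3.09.

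miR-802-5p, which in mouse is made mainly in liver and also in pancreatic islets and kidney, ranged from 1.66 to 5.93 log2 CPM (median 4.32) in irradiated mice and from 1.21 to 3.91 (median 2.72) in sham mice. Of the irradiated mice, 17 were above the highest sham mouse. The log2 fold change was 1.88 (SE 0.36, edgeR adjusted p = 3.27e-05). Within mice, miR-802-5p was lower at month 4 than at month 3 in 14 of 16 sham and 18 of 29 irradiated mice (medians -1.13 and -0.27). Against the sample before irradiation, 11 of 16 sham mice were lower and 21 of 25 irradiated mice were higher (medians -0.39 and 1.02). miR-122-3p, the passenger strand of miR-122, had 188 reads in 19 of 29 irradiated mice and 30 reads in 5 of 16 sham mice, and its log2 fold change of 1.604 (SE 0.74) did not pass the test (edgeR adjusted p = 0.207). Of the 3 tested members of the hepatocyte list, 2 therefore rose, beside 15 of all 483 miRNA tested.

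miR-192-5p, transcribed in liver, gut and kidney under hepatocyte nuclear factors, ranged from 11.30 to 14.66 log2 CPM (median 12.90) in irradiated and from 10.98 to 12.88 (median 12.02) in sham mice, and 15 irradiated mice exceeded all sham mice. Its log2 fold change was 1.13 (SE 0.19, edgeR adjusted p = 6.55e-07). It was the only one of 7 listed miRNA of these organs that passed, beside 23 of all 483 tested. miR-215-5p, which has the same seed, had a log2 fold change of 0.51 (SE 0.20, edgeR adjusted p = 0.124), and miR-194-5p, which is made from the same transcripts as miR-192 and miR-215, had 0.41 (SE 0.25, edgeR adjusted p = 0.432).

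All 3 tested acinar miRNA rose, beside 15 of all 483 miRNA tested. miR-216a-5p was detected in 28 of 29 irradiated mice with up to 166 reads and ranged to 6.54 log2 CPM (median 4.68), against a maximum of 4.54 (median 2.73) in sham mice. Most irradiated mice were above most sham mice, with 26 of 29 above the sham median and 16 above the highest sham value. The log2 fold change was 2.30 (SE 0.38, edgeR adjusted p = 6.55e-07). miR-217-5p had reads in 22 irradiated mice and in 7 sham mice, with totals of 263 and 40 reads, and a log2 fold change of 1.80 (SE 0.56, edgeR adjusted p = 0.0324). That call was lost when any 1 of the sham mice 1001, 1004, 1014, 1015, 1016, 1039 and 1040 was left out, with adjusted p up to 0.0575. miR-216b-5p was rare, with 35 reads spread over 8 of 29 irradiated mice and none in the 16 sham mice. Against a floor of 3 reads over all sham libraries, its pooled rate was 5.83-fold higher (edgeR adjusted p = 0.00315). The 95% counting interval of the ratio to sham began at 4.5. At other times sham mice had reads of miR-216b-5p, in 1 of 16 at month 3 and in 5 of 32 before irradiation. The irradiated arm had reads in 10 of 31 and 7 of 64 mice at those times. Counting intervals here cover counting error only, not the spread between mice, and a fold against a floor is a point value without error.

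**Figure D1:**
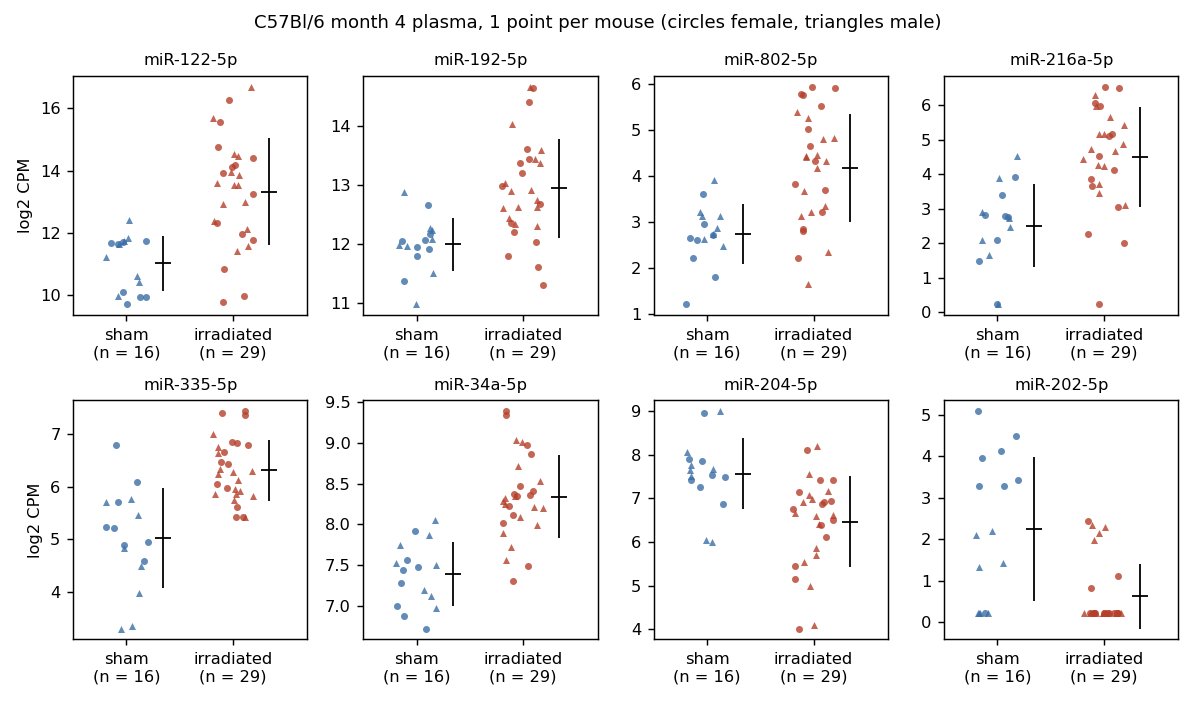
Plasma level of 8 miRNA in each C57Bl/6 mouse at month 4, as log2 CPM on the vertical axis, for 16 sham mice (blue) and 29 irradiated mice (red), with females as circles and males as triangles. Black bars beside the points are the mean ± SD. Irradiated mice spread upward for miR-122-5p, from 9.79 to 16.70 against 9.72 to 12.41 in sham mice, while miR-202-5p was at the level of no reads in 22 of 29 irradiated mice.

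miR-34a-5p gave one of the clearest separations. It ranged from 7.31 to 9.39 log2 CPM (median 8.32) in irradiated mice and from 6.72 to 8.06 (median 7.46) in sham mice, and 22 irradiated mice were above all sham mice. The log2 fold change was 0.99 (SE 0.21, edgeR adjusted p = 0.000295). miR-34c-3p ranged from 3.54 to 6.39 (median 5.20) in irradiated and from 3.18 to 5.49 (median 4.03) in sham mice, with a log2 fold change of 0.94 (SE 0.26, edgeR adjusted p = 0.0108). Of 6 tested miRNA of the miR-34 and miR-449 families, 2 rose and none fell, beside 15 higher and 8 lower of all 483 tested. A positive value was found for 5 of the 6, beside 224 of all 483. The median log2 fold change was 0.83 beside -0.07 over all 483 miRNA. miR-34b-5p and miR-449a-5p share the seed of miR-34a-5p, and their log2 fold changes of 1.82 (SE 0.71) and -0.49 (SE 0.46) did not pass.

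miR-335-5p, from the imprinted Mest locus, ranged from 5.42 to 7.44 log2 CPM (median 6.28) in irradiated mice and from 3.30 to 6.80 (median 5.09) in sham mice. All 29 irradiated mice were above the sham median, although only 6 exceeded the highest sham mouse. The log2 fold change was 1.15 (SE 0.24, edgeR adjusted p = 0.000282). Its 3 lowest values in sham mice, between 3.30 and 3.97, belonged to males 1013, 1004 and 1003. The sham level of miR-335-5p had fallen, with mean log2 CPM of 6.12 before irradiation, 5.74 at month 3 and 5.02 at month 4. In irradiated mice these means were 5.90, 6.85 and 6.31. Within mice, 13 of 16 sham mice were lower at month 4 than before irradiation (median change -0.64). Of 25 irradiated mice 19 were higher (median 0.73).

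Smaller rises were found for 3 abundant miRNA expressed in many tissues. miR-22-3p had a log2 fold change of 0.46 (SE 0.15), miR-30a-5p of 0.38 (SE 0.10) and miR-139-5p of 0.37 (SE 0.12), with edgeR adjusted p of 0.0443, 0.00808 and 0.0448. The groups overlapped broadly for each, with 2, 12 and 13 irradiated mice above all sham mice. The calls of miR-22-3p and miR-139-5p were lost on leaving out any 1 of 12 and of 20 mice, with adjusted p up to 0.0745 and 0.112, whereas miR-30a-5p kept its call on leaving out any 1 mouse. That of miR-139-5p was also lost with no filter on low counts (adjusted p = 0.0674), with the red blood cell list left out of library sizes (0.108), with only the 45 libraries (0.0754), in females alone (0.429) and in either letter alone (0.554 and 0.145). The 3 tested miRNA with the seed of miR-30a-5p, miR-30c-5p, miR-30e-5p and miR-384-5p, had log2 fold changes of -0.18, 0.29 and 0.88, and none passed.

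The muscle list showed 1 member that rose among others that did not pass. miR-208a-3p, of the heart, had 58 reads over 9 of 29 irradiated mice, up to 20 in a mouse, and no read in the 16 sham mice. Its pooled rate was 9.66-fold higher against the floor of 3 reads over the sham libraries (edgeR adjusted p = 0.00032). The 95% counting interval of the ratio to sham began at 7.61. The 3 highest values belonged to mice 1044, 1043 and 1018, and 20 irradiated mice had no read. At other times sham mice did have reads of miR-208a-3p, in 7 of 16 at month 3 and in 11 of 32 before irradiation. The irradiated arm had reads in 18 of 31 and 13 of 64 mice at those times. The 4 muscle miRNA with more reads had negative values, miR-206-3p with a log2 fold change of -1.04 (SE 0.44), miR-1a-3p of -0.66 (SE 0.45), miR-133a-3p of -0.62 (SE 0.42) and miR-499-5p of -0.44 (SE 0.34). None of these passed (edgeR adjusted p between 0.168 and 0.54). Only 1 of the 7 was positive, beside 224 of all 483 miRNA tested, and the list's median was -0.66. The other 2 were rare, miR-133b-3p with 91 and 79 reads in irradiated and sham mice and miR-208b-3p, which has the seed of miR-208a-3p, with 19 and 22.

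Among other miRNA with few reads, miR-350-5p had 47 reads over 9 irradiated mice and 1 read in the sham mice, a ratio of 23.5 with a 95% counting interval of 4.01 to 947 (edgeR adjusted p = 0.0148). miR-665-3p, of the imprinted Dlk1-Dio3 locus, had 18 reads over 7 irradiated mice and none in sham mice (edgeR adjusted p = 0.0396). It was 3-fold higher against the floor of 3 reads, with a 95% counting interval that began at 2.2. miR-7012-5p, from an intron of Dennd4b, had 14 reads over 5 of 29 irradiated mice and 38 reads over 5 of 16 sham mice, and fell with a log2 fold change of -2.12 (SE 0.69, edgeR adjusted p = 0.0448). For these miRNA a few reads in a few mice made the call. At month 3 sham mice had reads of miR-350-5p in 6 of 16 and of miR-665-3p in 5 of 16. Irradiated mice then had them in 9 and 7 of 31. Before irradiation the sham arm had reads in 13 and 6 of 32 mice, and the irradiated arm in 16 and 18 of 64. The call of miR-665-3p was lost without irradiated mouse 1011, 1021, 1030 or 1043 or sham mouse 1015 or 1040 (adjusted p up to 0.0868), that of miR-7012-5p without any 1 of 24 mice (adjusted p up to 0.207). With limma-voom or quantile-normalized values, none of miR-208a-3p, miR-216b-5p, miR-350-5p, miR-665-3p and miR-7012-5p passed. DESeq2 gave none of them an adjusted p.

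miR-202-5p, an miRNA of the gonads, had the lowest fitted value. Sham mice ranged from no reads to 5.09 log2 CPM (median 2.15), and irradiated mice from no reads to 2.45, with 22 of 29 at no reads. The log2 fold change was -3.46 (SE 0.78, edgeR adjusted p = 0.000661). The call was lost in limma-voom (-2.42, adjusted p = 0.0739), in limma-voom with the mouse as a random replicate block (adjusted p = 0.0604), with quantile-normalized values (-1.73, adjusted p = 0.0715), in males alone (-0.48, adjusted p = 0.908) and in mice of letter B alone (-3.13, adjusted p = 0.145). miR-204-5p, of eye, kidney and choroid plexus among other tissues, ranged from 4.01 to 8.20 (median 6.66) in irradiated and from 5.997 to 8.997 (median 7.58) in the sham group. This was a log2 fold change of -1.001 (SE 0.27, edgeR adjusted p = 0.00825), with 27 of 29 irradiated mice below the sham median.

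Of 8 stromal and smooth muscle miRNA, 1 fell and none rose, beside 8 lower and 15 higher of all 483 tested. Only 1 of the 8 had a positive value, and the list's median log2 fold change was -0.43, beside -0.07 over all 483. miR-199a-5p, of fibroblasts and other mesenchymal cells, ranged from 2.49 to 7.34 log2 CPM (median 5.48) in irradiated and from 5.36 to 7.63 (median 6.63) in sham animals. It was lower than in sham mice by 0.92 on the log2 scale (SE 0.26, edgeR adjusted p = 0.0153), and 12 irradiated mice were below all sham mice. From before irradiation to month 4 its mean log2 CPM went from 4.63 to 6.62 in sham mice and from 4.44 to 5.52 in irradiated mice. The 3p strands of miR-199a and miR-199b, with nearly equal counts (64505 and 64864 reads in irradiated mice), had -0.50 (SE 0.17) and -0.49 (SE 0.17) with edgeR adjusted p of 0.0506 and 0.0516, and miR-199b-5p had -0.92 (SE 0.33, edgeR adjusted p = 0.0751). miR-143-3p, the most abundant of the list, had -0.37 (SE 0.18, edgeR adjusted p = 0.246).

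miR-125b-5p, one of the most abundant plasma miRNA, ranged from 13.20 to 15.09 log2 CPM (median 13.99) in irradiated and from 13.79 to 15.77 (median 14.55) in sham mice. It was lower than in sham mice by 0.54 on the log2 scale (SE 0.16, edgeR adjusted p = 0.0219). miR-99b-5p was lower by 0.60 (SE 0.17, adjusted p = 0.0116), miR-23b-3p by 0.60 (SE 0.15, adjusted p = 0.00383) and miR-195a-5p by 0.50 (SE 0.15, adjusted p = 0.0275). From before irradiation to month 4, mean log2 CPM of miR-125b-5p went from 13.83 to 14.64 in sham and from 13.81 to 14.09 in irradiated mice. For miR-23b-3p these means went from 8.165 to 9.44 and from 8.24 to 8.76. Those of miR-195a-5p went from 8.01 to 8.92 and from 8.05 to 8.37, and those of miR-99b-5p from 8.28 to 8.55 and from 8.31 to 7.94. The groups overlapped for each of the 4, with between 5 and 10 irradiated mice below all sham mice. Without sham mouse 1015 or 1040 the calls of miR-125b-5p and miR-195a-5p were lost, as was that of miR-195a-5p without sham mouse 1028, with adjusted p up to 0.109 and 0.0874. miRNA with the same seeds differed among themselves: miR-125a-5p had -0.45 (SE 0.15, edgeR adjusted p = 0.0516) and miR-100-5p and miR-99a-5p had -0.81 and -0.64, whereas miR-16-5p and miR-15b-5p, with the seed of miR-195a-5p, had 0.00 and 0.02 and miR-497a-5p had -0.66 (SE 0.23, edgeR adjusted p = 0.0656).

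**Figure D2:**
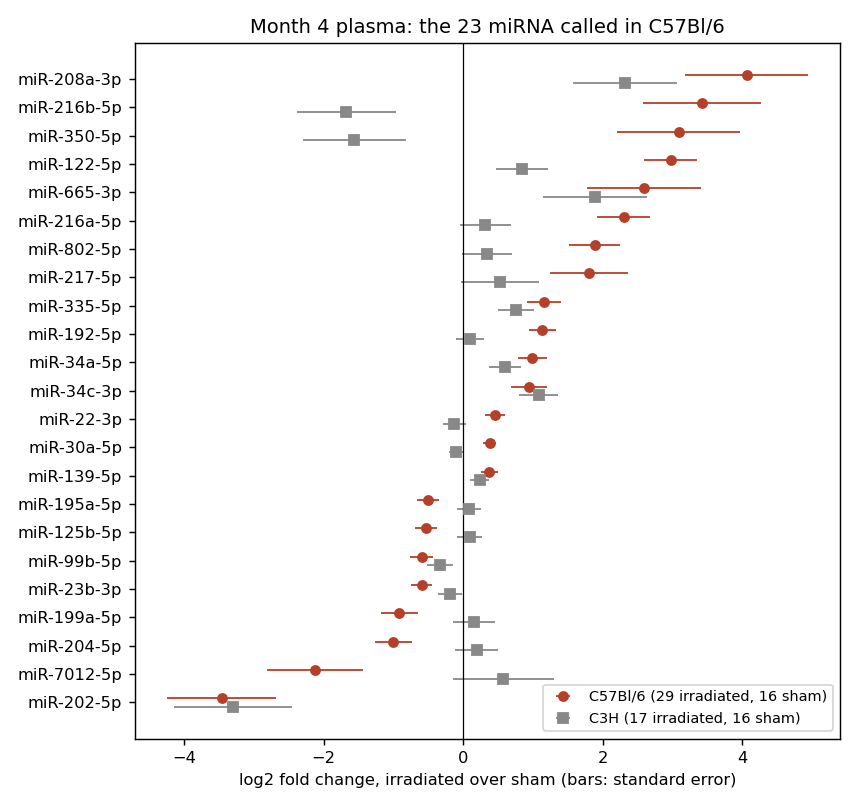
Log2 fold change of irradiated over sham mice at month 4 (horizontal axis, bars are the standard error) for the 23 miRNA that passed the test in C57Bl/6 (red circles), with the same comparison in C3H (grey squares). miR-34c-3p and miR-202-5p lie close together in both strains, while miR-122-5p, at 2.97 and 0.84, and miR-192-5p, at 1.13 and 0.10, lie apart.

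The lists of blood cell miRNA moved little. No member of 7 red blood cell miRNA passed, with all 7 positive and a median log2 fold change of 0.19, and their summed level ranged from 14.59 to 16.35 log2 CPM (median 15.34) in irradiated and from 14.50 to 16.22 (median 15.28) in sham mice. None of 7 lymphocyte and pan-leukocyte miRNA (median -0.16) and none of 5 myeloid miRNA (median 0.28) passed. No member passed among 3 endocrine and gut miRNA, 10 epithelial miRNA of the miR-200 and related families, 2 endothelial miRNA, 7 of the miR-21 and miR-29 families followed in fibrosis, 13 of the miR-17 clusters, 10 neural miRNA and 25 listed miRNA of the imprinted Dlk1-Dio3 cluster, with medians between -0.18 and 0.52. The last list does not hold miR-665-3p, which comes from that locus and rose. None of 9 let-7 miRNA passed either, although all 9 were negative, with a median of -0.28. Over all 483 miRNA tested, 224 were positive and the median was -0.07. The gonad list is the pair miR-202-5p and miR-202-3p, of which 1 fell.

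Before irradiation the comparison of the same arms, with 64 mice of the irradiated and 32 of the sham arm, called 0 of 483 miRNA (0%) by edgeR. An unadjusted p below 0.05 was found for 25 miRNA. Only 25 and 16 of these mice also had a month 4 library. The difference between the month 4 effect and that baseline difference was tested in the same fit, and 21 miRNA passed (4.35%), 15 higher and 6 lower. miR-122-5p had the value 3.10 (SE 0.43, edgeR adjusted p = 3.62e-10), miR-216a-5p 2.28 (SE 0.46, adjusted p = 0.000185) and miR-192-5p 1.17 (SE 0.23, adjusted p = 6.45e-05). With each mouse set against its own baseline, in limma-voom with the mouse as a fixed replicate block, 6 miRNA passed, 6 higher and 0 lower, so that none of the 6 falls kept its call. In plain limma-voom 10 passed, 9 higher and 1 lower. Of 25 irradiated mice with both libraries, 21 had more miR-122-5p at month 4 than before, with a median change of 1.64 log2 units (range -2.46 to 6.17), and of 16 sham mice 5 did (median -0.92). miR-34a-5p was higher at month 4 than before in 25 of 25 irradiated mice and also in 16 of 16 sham mice, with medians of 2.21 and 1.03. The level of miR-34a-5p was thus higher late than early in both treatments, and the effect minus baseline was 1.09 (SE 0.25, edgeR adjusted p = 0.00147).

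Over the study, miR-122-5p changed direction. It was lower in irradiated mice at day 2 and day 5, with log2 fold changes of -1.69 (SE 0.31, edgeR adjusted p = 5.52e-06) and -1.74 (SE 0.31, adjusted p = 1.36e-06), had -0.55 (SE 0.22, adjusted p = 0.141) at month 1, and was higher at month 2 by 1.36 (SE 0.34, adjusted p = 0.00507), at month 3 by 1.47 (SE 0.35, adjusted p = 0.00156) and at month 5 by 3.23 (SE 0.39, adjusted p = 3.64e-13). At month 6, with 8 irradiated mice left, it was 1.10 (SE 0.44, edgeR adjusted p = 0.408). miR-192-5p, by contrast, was higher already at day 2 (0.93, SE 0.19, edgeR adjusted p = 5.78e-05) and day 5 (0.75, SE 0.18, adjusted p = 0.000983). The acinar miR-216a-5p passed from month 1 onward, its log2 fold change being 2.07 (month 1), 3.06 (month 2), 2.43 (month 3), 1.53 (month 5) and 3.03 (month 6). miR-202-5p was higher at day 2 (2.204, SE 0.70, edgeR adjusted p = 0.0305) and lower from month 1 (-3.10, SE 0.48, adjusted p = 3.49e-08) to month 5 (-2.84, SE 0.88, adjusted p = 0.037). miR-335-5p passed first at month 3, with 1.09 (SE 0.24, edgeR adjusted p = 0.000769).

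**Figure D3:**
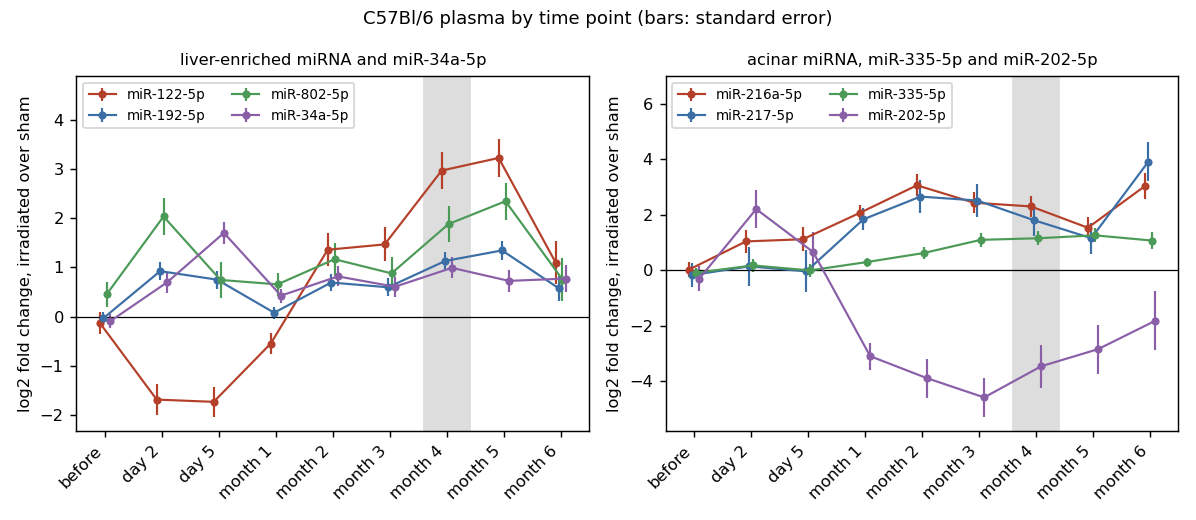
Log2 fold change of irradiated over sham C57Bl/6 mice (vertical axis, bars are the standard error) at each time point, with month 4 shaded, for 4 miRNA in each panel. The line of miR-122-5p crosses from -1.69 at day 2 to 2.97 at month 4, and that of miR-202-5p from 2.204 at day 2 to -3.46.

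Of the 23 miRNA called at month 4, 9 were also called at day 2 and 11 at day 5. Of all 483 tested, 32 (6.63%) were called at day 2 and 68 (14.1%) at day 5. In the months after, 7 of the 23 were also called at month 1, 10 at month 2, 6 at month 3, 12 at month 5 and, with 8 irradiated mice left, 2 at month 6. The calls among all 483 at these months were 18 (3.73%), 16 (3.31%), 8 (1.66%), 17 (3.52%) and 2 (0.414%). The direction was that of month 4 for 7 of the 9, 10 of the 11 and 6 of the 7, and for all of those called at months 2, 3, 5 and 6. Mice of month 4 were also sampled at these other time points, so the counts do not come from independent animals. Day 2 and day 5 were drawn from different mice, and the early groups also hold mice with no month 4 library. The effect at month 5 minus that at month 4 called 0 miRNA (0%) with edgeR, 16 at an unadjusted p below 0.05, and 0 with limma-voom, with quantile-normalized values and with DESeq2.

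The month 4 effect minus the month 3 effect called 4 miRNA (0.828%). Of these miR-204-5p is the only one with reads in most mice. It had a log2 fold change of 0.47 at month 3 and -1.001 at month 4, a difference of -1.47 (SE 0.39, edgeR adjusted p = 0.0205). Mean log2 CPM of miR-204-5p over months 3, 4 and 5 was 6.68, 7.56 and 6.59 in sham mice and 6.95, 6.47 and 6.39 in irradiated mice. Within mice it was higher at month 4 than at month 3 in 11 of 16 sham mice and in 12 of 29 irradiated mice. The call was lost without sham mouse 1016 or 1037 (adjusted p up to 0.098), in limma-voom with and without the mouse as a random replicate block (adjusted p = 0.0759 and 0.101) and with quantile-normalized values (adjusted p = 0.165). The other 3, miR-350-5p (4.49), miR-7687-3p (-5.04) and miR-540-5p (-3.98), rest on low counts: miR-7687-3p had reads in 12 of 31 irradiated and 1 of 16 sham mice at month 3 and in 3 of 29 and 5 of 16 at month 4.

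In C3H mice, 17 irradiated and 16 sham, month 4 called 2 miRNA (0.414%), miR-34c-3p and miR-202-5p, both in the direction found in C57Bl/6. The difference between the strains' effects passed for 6 miRNA (1.24%), 5 of them higher in C57Bl/6. It was 2.13 (SE 0.50, edgeR adjusted p = 0.00561) for miR-122-5p, whose log2 fold change in C3H was 0.84 (SE 0.37, adjusted p = 0.403), 1.03 (SE 0.28, adjusted p = 0.0152) for miR-192-5p and 1.98 (SE 0.52, adjusted p = 0.0147) for miR-216a-5p. The strains began from different levels of miR-216a-5p: at month 4 the mean log2 CPM was 2.50 in sham and 4.499 in irradiated C57Bl/6 mice, and 4.45 in sham and 4.73 in irradiated C3H mice. Irradiated C57Bl/6 mice thus had a mean near that of C3H controls. miR-192-5p lost its strain call without irradiated mouse 1011 or 1032 (adjusted p up to 0.0533). With limma-voom only 1 of the 6 passed and with quantile-normalized values none, 38 miRNA then having an unadjusted p below 0.05. With the mouse as a random replicate block in limma-voom, 1 passed. The doses given in the paper's methods were nearly equal but not the same in both strains, so strain and dose cannot be told apart. Month 4 was the last time point of C3H here. The methods describe blood drawn from the heart at the end of the study, but how each month 4 sample was drawn is not given in the sources used here.

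Females and males differed for miR-202. In females, miR-202-5p had reads in 7 of 8 sham mice (165 reads) and in 3 of 14 irradiated mice (11 reads), with mean log2 CPM of 3.49 ± 1.46 (SD) and 0.50 ± 0.63 (SD). In males it had reads in 4 of 8 sham mice (15 reads) and 4 of 15 irradiated mice (18 reads), with means of 1.00 ± 0.87 (SD) and 0.76 ± 0.91 (SD). The fall was thus seen in females, whose sham level was the higher, and the female minus male difference of the effect was -4.40 (SE 1.13, edgeR adjusted p = 0.0265). miR-202-3p gave the same picture, with 52 reads in 7 of 8 sham females and none in 14 irradiated females. With a floor of 3 reads over the irradiated females it was 38.3-fold lower there, a point value without error. Males had 8 reads in 3 of 8 sham mice and 27 reads in 6 of 15 irradiated mice (edgeR adjusted p of the sex difference = 3.1e-05). In total 5 miRNA passed this test (1.04%), the other 3 on a few reads. For the other 22 miRNA called at month 4 the sex difference did not pass. It was 0.21 (SE 0.63) for miR-122-5p and 1.19 (SE 0.66, edgeR adjusted p = 0.767) for miR-802-5p.

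The bleed letter went with the level of miR-122-5p. In mice of letter A, irradiated values were 14.43 ± 1.26 (SD, n = 14) and sham values 11.16 ± 0.96 (SD, n = 8), and in mice of letter B they were 12.31 ± 1.47 (SD, n = 15) and 10.90 ± 0.86 (SD, n = 8). All irradiated mice of letter A were at or above 12.32 against a sham maximum of 12.41, whereas irradiated mice of letter B reached down to 9.79. The fitted log2 fold change was 3.55 in letter A and 1.82 in letter B. The difference of the effect between letters was 1.73 (SE 0.64, edgeR adjusted p = 0.37) and did not pass. miR-192-5p went the same way, with irradiated means of 13.49 and 12.43 and sham means of 12.23 and 11.76. In a fit with a mean for each letter, 13 miRNA passed in letter A (2.69%) and 2 in letter B (0.414%). All 23 called miRNA had the sign of the pooled value in both letters, with an unadjusted p below 0.05 for 21 in letter A and for 21 in letter B, beside 61 of all 483 in each letter. The calls were made on both letters together, so these counts are no independent support for them. A test of the difference between letters, added after the data were seen, called 4 miRNA (0.828%), none of the 23. The largest in abundance of these was miR-499-5p of muscle, with a difference of -2.80 (SE 0.71, edgeR adjusted p = 0.0236). miR-451a differed little by letter, with means of 11.95 and 12.39 in irradiated and 12.06 and 12.09 in sham mice. The part of the bleed letter in these values was not tested further.

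Within the 29 irradiated mice, mice with more miR-122-5p also had more miR-192-5p. Pearson's r of their log2 CPM was 0.88 and Spearman's rho 0.91, each with a two-sided permutation p of 1e-05, the smallest that 100000 resamples can give, and 0.00023 after Benjamini-Hochberg adjustment over 23 relations. Without the 2 mice farthest from the median of miR-122-5p, r was 0.88, within females 0.84 (n = 14), within males 0.94 (n = 15), and within letters A and B 0.88 and 0.73. miR-802-5p had r = 0.58 and rho = 0.61 with miR-122-5p (permutation p of 0.00094 and 0.00057, adjusted 0.0072 and 0.0066), and r = 0.51 without those 2 mice. For miR-802-5p r was 0.87 in females and 0.23 in males, a difference that was not tested, and 0.67 and 0.35 in letters A and B. miR-34a-5p had r = 0.59 and rho = 0.52 (permutation p of 0.00077 and 0.0045, adjusted 0.0072 and 0.035), 0.53 without the 2 mice, 0.71 and 0.46 in females and males, and 0.73 and 0.42 in letters A and B.

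No other relation of the 23 passed after adjustment. The acinar miR-216a-5p had r = 0.35 and rho = 0.33 (permutation p of 0.064 and 0.081, adjusted 0.29 and 0.27), with 0.55 in females and -0.24 in males. miR-451a had r = -0.18 and rho = -0.18 (permutation p of 0.35 and 0.34, adjusted 0.69 and 0.75). All these values are parts of the same libraries, so a rise of an abundant miRNA lowers the share left to the others. The most abundant, miR-16-5p, took between 27.05% and 59.45% of the reads of an irradiated library, and miR-122-5p at most 9.28%.

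**Figure D4:**
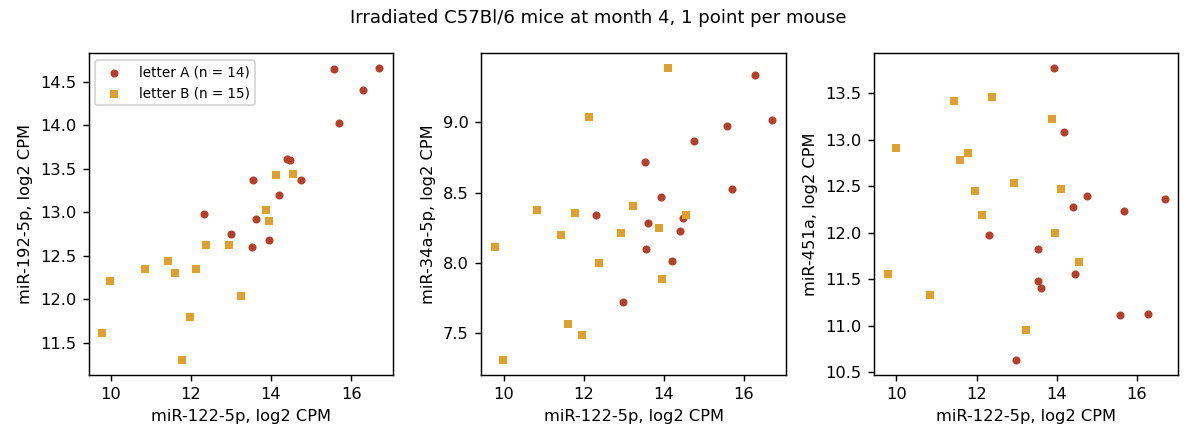
Log2 CPM of miR-192-5p, miR-34a-5p and miR-451a (vertical axes) against that of miR-122-5p (horizontal axes) in the 29 irradiated C57Bl/6 mice at month 4, 14 of letter A (red circles) and 15 of letter B (orange squares). The points of miR-192-5p follow those of miR-122-5p closely (r = 0.88), those of miR-34a-5p more loosely (r = 0.59), and those of miR-451a show no clear trend (r = -0.18).

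The 4 irradiated females with no library before month 1 had miR-122-5p values between 13.94 and 14.76, miR-192-5p values between 12.68 and 13.61 and miR-335-5p values between 6.67 and 7.44 log2 CPM. Mice 1099 and 1100 among them had the highest miR-335-5p values of all, and the other values lay within the range of the remaining irradiated mice. Without these 4 mice 26 miRNA passed.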

How the data were processed

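Plasma miRNA libraries (QIAseq miRNA kit) were analysed as read counts per mature miRNA, deposited by the authors without normalization. Per the paper's methods and the labels, hemolysed plasma and libraries dominated by adapter dimer had been left out, and reads were aligned to mouse miRNA (mm10). The miRBase release and use of molecular identifiers are not given in the sources used here. Groups came from the labels.

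Counts were normalized by TMM, and 483 of 1915 miRNA kept by filterByExpr, with 99.99% of the month 4 reads, were fitted in R 4.3.3 with the quasi-likelihood model of edgeR 4.0.16, with a mean for each of 32 groups of all libraries of the series (867 residual degrees of freedom) and Benjamini-Hochberg adjustment. log2 CPM used a prior count of 2. Sex and letter differences had these as part of the groups. The procedure was tested on simulated data. Alternatives used limma 3.58.1, DESeq2 1.42.0, other normalizations and subsets.

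Mouse numbers pair libraries across time points, since each number is 1 mouse, but irradiated and sham mice at month 4 share none. Deviations of libraries of the same mouse had a consensus correlation of 0.0434.

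The text names every miRNA called at month 4, up to 4 abundant members per list and up to 5 per direction of each difference test. Other names (seed relatives, miRNA of other arms) were chosen after their values were seen. The samples and the miRNA lists were chosen with earlier results of these data known.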

Additional observations from a re-analysis of the deposited data

Results flagged for a closer look

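The following miRNA had an effect of irradiation at month 4 in C57Bl/6 mice that differed between strains, time points, sexes or bleed letters by edgeR's test of the difference itself (Benjamini-Hochberg adjusted p below the threshold). Values are differences of log2 fold changes. For miRNA with few reads they depend on the prior count of the fit and are no measure of size.

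Between strains (C57Bl/6 minus C3H) the differences were 5.09 for miR-216b-5p, 4.64 for miR-350-5p, 2.13 for miR-122-5p, 1.98 for miR-216a-5p, 1.03 for miR-192-5p and -4.00 for miR-7687-3p. Of these only miR-122-5p, miR-216a-5p and miR-192-5p had reads in nearly all mice of both strains.

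Between month 4 and the samples before irradiation the differences were 4.33 for miR-216b-5p, 4.26 for miR-208a-3p, 3.82 for miR-350-5p, 3.10 for miR-122-5p and 2.84 for miR-455-3p among the rises, and -3.15 for miR-202-5p, -2.73 for miR-7012-5p, -2.67 for miR-465b-5p, -0.95 for miR-151-5p and -0.68 for miR-23b-3p among the falls. miR-151-5p had reads in all month 4 mice, while miR-455-3p had 60 reads over 13 irradiated mice and 4 over 2 sham mice. On leaving out 1 mouse the call of miR-455-3p was lost for 33 of the 45 mice, and those of miR-151-5p, miR-7012-5p and miR-465b-5p each for 28 (adjusted p up to 0.0839, 0.0953, 0.176 and 0.115). With each mouse set against its own baseline, as a fixed replicate block in limma-voom, none of the falls passed, with adjusted p of 0.474 for miR-202-5p, 0.406 for miR-151-5p and 0.101 for miR-23b-3p.

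Between month 4 and month 3 they were 4.49 for miR-350-5p, -5.04 for miR-7687-3p, -3.98 for miR-540-5p and -1.47 for miR-204-5p.

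Between females and males they were 5.02 for miR-6900-3p, -6.67 for miR-292a-5p, -6.62 for miR-202-3p, -5.81 for miR-1668 and -4.40 for miR-202-5p. The value of miR-292a-5p rests on 22 reads in 1 irradiated male and 4 reads in 1 sham female. miR-6900-3p had 50 reads in 8 of 14 irradiated females and 1 read in sham females, and 10 and 16 reads in irradiated and sham males. miR-1668 had 28 reads in 5 irradiated males and none in sham males.

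Between bleed letters (A minus B) they were 5.56 for miR-452-3p, -6.64 for miR-292a-5p, -5.47 for let-7f-2-3p and -2.80 for miR-499-5p. At month 4 miR-452-3p and let-7f-2-3p had reads in 11 and 7 of 29 irradiated mice, and miR-499-5p in all 29.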

How the results depend on the processing

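No result reversed its direction under any alternative. The 23 miRNA called at month 4 were 25 with DESeq2 size factors, 27 without the red blood cell list in library sizes, 22 with limma-voom, 26 with quantile-normalized values, 26 with DESeq2, 20 with the mouse as a random replicate block, 21 with only the 45 libraries, 22 with sex and letter added, and 17 to 34 on leaving out 1 mouse. Without a filter on low counts 67 passed, of which 21 were among the 23. With females alone 13 passed, with males alone 7, with letter A alone 13 and with letter B alone 0 (63 at an unadjusted p below 0.05). These subsets hold fewer samples. miR-122-5p lost its call only with letter B alone (adjusted p = 0.101, log2 fold change 1.74).

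Without a filter the strain, baseline, month 3, month 5, sex and letter differences gave 39, 59, 41, 37, 20 and 32 calls. limma-voom gave 1, 10 and 0 for strain, baseline and month 3, 2 for sex and 0 for letter. Quantile-normalized values gave 0 for strain, 1 for month 3 and 0 for letter, and DESeq2 gave 1 for month 3, 2 for sex and 1 for letter. The random replicate block gave 1 for strain, 10 for baseline and 0 for month 3, and the fixed replicate block 6 for baseline, with 41 mice in it. Only the 45 libraries gave 0 for sex and for letter, with 278 miRNA tested. None of the 5 miRNA with a sex call was among those tested, so that fit could not call them. Of the miRNA with a letter call it held only miR-499-5p (edgeR adjusted p = 0.0738). In each of the 6 alternatives that held them, miR-202-3p and miR-202-5p passed the sex test. The cause of the other changes was not tested. On leaving out 1 mouse the calls were 5 to 8 for strain, 13 to 23 for baseline (13 without sham mouse 1001), 3 to 5 for month 3 and 0 for month 5. For single miRNA, 334 values kept their side of the threshold and 195 lost it, with values that got no adjusted p counted as lost. A planned limit on low library totals was not run, since no month 4 library fell under it. With only miRNA of at least 10 reads per library on average, 269 were tested and 21 passed, not all of them among the 23. Depth limits the miRNA with fewer reads.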
